A study of Mus musculus with 10 samples.

Results

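The genes described here encode the cornified envelope and its neighbours in the epidermal differentiation complex, a cluster of genes that keratinocytes switch on late in differentiation. They were chosen by symbol: every Sprr and Lce gene of the table, together with Flg, Flg2, Ivl, Rptn, Hrnr, Crnn, Tchhl1, Tgm1, Tgm3, Tgm5, Krtdap, Sbsn, Dmkn, Cnfn, Cdsn, Lor, Asprv1, Casp14, Calm4 and Calm5. This gave 54 genes of the 18994 listed, and 48 of the 54 had enough counts to be tested. The mRNA was taken from cheek skin of C57BL/6 mice, 5 given MMP9 and 5 given vehicle, with no other allele or agent named. MMP9 is a secreted protease that cleaves denatured and basement membrane collagens, and the mice given it received 1 µg in 5 µL into the skin of the right cheek, whereas the vehicle mice received the same volume without it. All mice were 6 to 8 weeks old, had the cheek shaved 3 days earlier, and gave their tissue 4 hours after the injection. The labels number separate mice, so each library is 1 animal, while neither sex nor the make-up of the vehicle was stated in the labels.

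The cornified envelope is an insoluble protein layer that replaces the plasma membrane of a keratinocyte as it becomes a dead cell of the skin surface. Involucrin, loricrin, small proline-rich proteins and late cornified envelope proteins are its building blocks, and transglutaminases join them by bonds that proteases do not easily cut. Filaggrin and its relatives are processed at the same stage, bundle keratin filaments and are broken down to amino acids that hold water. In injured or inflamed epidermis, some members of the Sprr and Lce families are known to be made in larger amounts than at rest.

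The members were abundant in both groups and no member differed between MMP9 and vehicle beyond the spread of the mice. By edgeR's quasi-likelihood test with Benjamini-Hochberg adjustment over all tested genes, 0 of 48 members passed at an adjusted p of 0.05, and the lowest adjusted p of a member was 0.981. Of all 15250 tested genes 0% passed as well. At an unadjusted p under 0.05 there was 1 of 48 members, Tgm3, against 3.19% of all tested genes, and by DESeq2 and limma-voom the count was also 1 with 0 members passing. The CPM ranges of the groups overlapped for all 48 tested members, whereas 0.564% of the tested genes had ranges that did not overlap. The log2 fold change, MMP9 over vehicle, was positive for 20 members and negative for 28, with a median of -0.06, beside 53.7% positive and a median of 0.01 over all tested genes. The count of positive members depended on single mice and was 38 without vehicle mouse 2 and 8 without MMP9 mouse 4. In bulk tissue, fewer cells of a type and less RNA per cell cannot be told apart.

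How closely the data bound a change differed between members. The 95% interval around the log2 fold change stayed within 1 of 0 for 30 of the 48. For the other 18 it reached further, and for 12 of these beyond 2, so that a change of that size was not excluded. All 12 intervals but that of Tgm3 included 0. The wide intervals belonged mainly to Sprr1b, Sprr2, Lce3, Crnn and Tchhl1, whose levels differed most between mice of the same group.

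**Figure D1:**
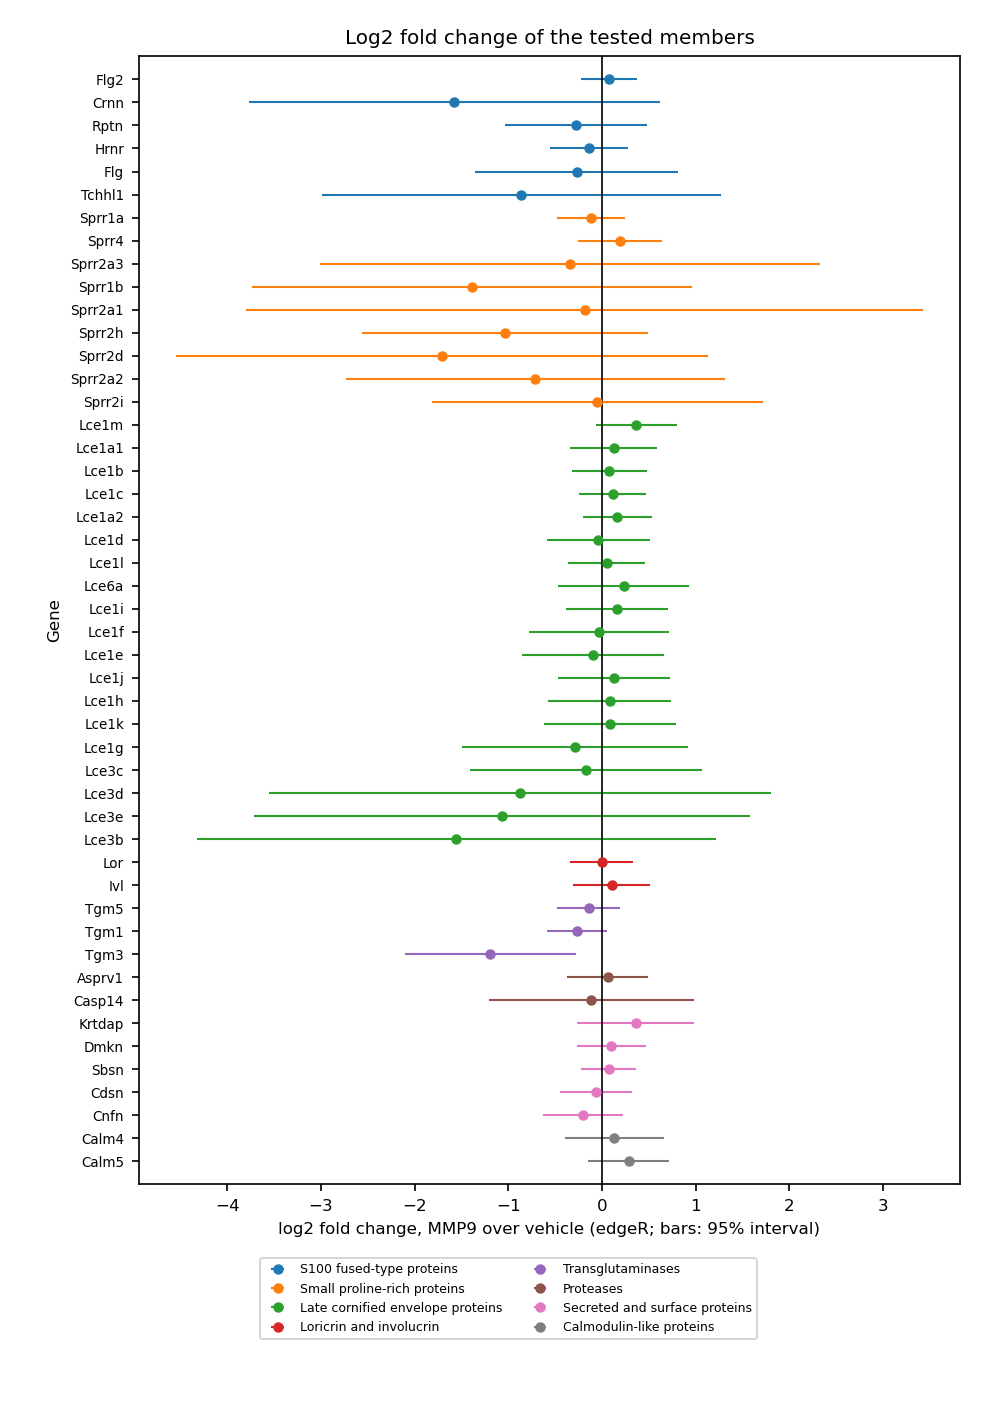
Log2 fold change of the 48 tested members, MMP9 over vehicle (x axis, edgeR), with the 95% interval as a bar, grouped and coloured by family from top to bottom. The points run from -1.71 for Sprr2d to 0.37 for Lce1m, and the intervals are narrow for the abundant members and wide for Sprr2, Lce3, Crnn and Tchhl1.

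The libraries held 17121541 to 19443099 estimated counts each, and the members together made up 2.40% to 3.39% of the TPM in MMP9 mice and 2.21% to 3.39% in vehicle mice. The tissue was skin by its markers: the summed TPM of 6 suprabasal keratins lay between 3243 and 6470 in MMP9 mice and between 3509 and 6456 in vehicle mice, and the oral keratins Krt4 and Krt13 did not exceed 0.83 and 0.59 TPM in any library. Of the other oral and salivary markers Krt76 and Smr3a did not exceed 0.16 and 0.31 TPM, while the salivary amylase gene Amy1 had 16.4 to 36.2 TPM in MMP9 mice and 12.8 to 29.8 TPM in vehicle mice. It also held muscle, with a summed TPM of 8 skeletal muscle genes from 19644 to 35968 in MMP9 mice and from 19296 to 36478 in vehicle mice. Some libraries stood apart from others of their group. MMP9 mouse 1 and vehicle mouse 2 had almost no inner root sheath or hair shaft transcripts. Their summed TPM of 8 inner root sheath genes was 12.6 and 8.55, against 129 to 1502 in the other MMP9 mice and 759 to 3475 in the other vehicle mice. Their hair shaft sums were 2.78 and 1.62, against 369 to 842 in the other MMP9 mice and 582 to 3288 in the other vehicle mice. Vehicle mouse 3 was highest for these. MMP9 mouse 4 had more of short transcripts. Its median log2 deviation from the mean of all 10 libraries was 0.73 for genes under 1000 bases and -0.32 for genes over 4000 bases. Of all tested genes, 65.7% had their lowest TPM there.

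The structural proteins loricrin and involucrin stood at nearly the same level in both groups. Lor, which encodes the main protein of the envelope by mass, had 1654, 1456, 1498, 945 and 1250 TPM in MMP9 mice 1 to 5, against 1251, 1874, 1569, 1094 and 1224 TPM in vehicle mice 1 to 5. By TPM the highest library was vehicle mouse 2 and the lowest MMP9 mouse 4, and the ranges of the groups overlapped. By CPM the lowest was vehicle mouse 4 at 1167, while MMP9 mouse 4 had 1491. Lor had a log2 fold change of -0.0014 (SE 0.15, edgeR adjusted p = 1.00), and its interval ran from -0.34 to 0.33. Ivl, the scaffold on which the envelope is assembled, had 166, 120, 116, 123 and 99.9 TPM in MMP9 mice and 124, 162, 113, 96.4 and 122 TPM in vehicle mice. The highest TPM came from MMP9 mouse 1 and vehicle mouse 2, while by CPM MMP9 mouse 4 was highest at 211. The log2 fold change of Ivl was 0.10 (SE 0.19, edgeR adjusted p = 0.981).

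The secreted and surface proteins of differentiating keratinocytes included the most abundant member. Krtdap, a small secreted protein of keratinocytes leaving the basal layer, had 10829, 8141, 7295, 13726 and 7955 TPM in MMP9 mice, against 9534, 8841, 8325, 7078 and 7515 TPM in vehicle mice. By TPM MMP9 mice 4 and 1 lay above every vehicle mouse and the other 3 within their range. By CPM MMP9 mouse 3, at 1639, lay below every vehicle mouse, of which mouse 4 was lowest at 1727. Its log2 fold change was 0.36 (SE 0.28, edgeR adjusted p = 0.981), and it was -0.03 without MMP9 mouse 4, the library rich in short transcripts. Krtdap is itself short, with an implied length of 395 bases, and the part of transcript length in this difference was not tested.

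Dmkn encodes dermokine, another secreted protein of the upper epidermis, and had 4546, 3775, 3781, 3885 and 2934 TPM in MMP9 mice and 3624, 4776, 4332, 3039 and 3259 TPM in vehicle mice, a log2 fold change of 0.10. Its groups covered the same range. Cnfn, the envelope protein cornifelin, had 428, 288, 292, 259 and 223 TPM in MMP9 mice and 260, 485, 411, 303 and 347 TPM in vehicle mice. Cnfn had a log2 fold change of -0.20 (SE 0.19, edgeR adjusted p = 0.981), negative in all 22 alternatives. Sbsn, which encodes suprabasin, and Cdsn, which encodes the corneodesmosome adhesion protein, had log2 fold changes of 0.07 and -0.07. Sbsn averaged 2874 ± 299 TPM in MMP9 mice and 2725 ± 336 TPM in vehicle mice, and Cdsn 542 ± 152 TPM in MMP9 mice and 576 ± 150 TPM in vehicle mice (SD, n = 5 each).

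The skin-specific calmodulin-like proteins had positive log2 fold changes that did not pass. Calm4 had 1636, 1064, 927, 1174 and 818 TPM in MMP9 mice and 993, 1460, 1062, 748 and 1216 TPM in vehicle mice. Its TPM was highest in MMP9 mouse 1 and its CPM in MMP9 mouse 4, at 927 CPM, and the log2 fold change was 0.13. Calm5 had 53.5, 56.1, 46.6, 58.3 and 40.4 TPM in MMP9 mice and 50.0, 39.3, 49.2, 44.7 and 42.3 TPM in vehicle mice. The ratio of its highest to its lowest library was 1.48, smaller than for every other member but Sbsn at 1.32. MMP9 mice 4, 2 and 1 lay above every vehicle mouse, the log2 fold change of Calm5 was 0.28 (SE 0.20, edgeR adjusted p = 0.981), and it was 0.05 without MMP9 mouse 4.

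The late cornified envelope genes fell into 3 subgroups of very different level and spread, a division made after the values were seen. The 14 Lce1 genes encode major envelope proteins of normal skin, and their summed TPM was 5990, 4735, 4907, 5195 and 4924 in MMP9 mice, against 4120, 6522, 4985, 3910 and 4573 in vehicle mice. The sums overlapped, with the highest in vehicle mouse 2 and the lowest in vehicle mouse 4. Of the 14, 10 had positive and 4 negative log2 fold changes, with a median of 0.08 and a range from -0.29 for Lce1g to 0.37 for Lce1m. The number positive was 3 without MMP9 mouse 4, 5 without vehicle mouse 1 and 14 without vehicle mouse 2. The single Lce6 gene, Lce6a, had a log2 fold change of 0.23 that was -0.12 without MMP9 mouse 4.

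Lce1m was the most abundant Lce gene, at 2020, 1841, 2094, 2212 and 1755 TPM in MMP9 mice, against 1878, 1723, 1885, 1353 and 1439 TPM in vehicle mice. By TPM MMP9 mice 4, 3 and 1 lay above all vehicle mice, and vehicle mice 2, 4 and 5 below all MMP9 mice. By CPM MMP9 mouse 1, at 934, lay below vehicle mice 1 and 3, at 955 and 945. Its log2 fold change was 0.37 (SE 0.20, edgeR unadjusted p = 0.0900, adjusted p = 0.981), with an interval from -0.07 to 0.80. It was positive in all 22 alternatives and was 0.15 without MMP9 mouse 4. Lce1a1 followed at 877, 654, 632, 715 and 709 TPM in MMP9 mice and 508, 1031, 697, 586 and 686 TPM in vehicle mice. Its log2 fold change was 0.12, and both the highest and the lowest values came from vehicle mice, 2 and 1.

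The Lce3 genes, whose human relatives are known for their induction in psoriasis and after barrier injury, were low and uneven. Their summed TPM was 51.0, 40.5, 7.4, 25.8 and 12.2 in MMP9 mice and 5.16, 134, 11.8, 8.23 and 69.8 in vehicle mice. Each of the 6 genes had its highest value in vehicle mouse 2, and 4 of the 6 were listed at 0 in at least 1 library, where a count of 0 still allows up to 3 counts. All 4 tested Lce3 genes had negative log2 fold changes, with a median of -0.97, and without vehicle mouse 2, as with limma-voom, 3 of the 4 were positive. Lce3b had 2.25, 1.81, 0, 1.78 and 0 TPM in MMP9 mice and 0.20, 13.5, 0, 0 and 5.18 TPM in vehicle mice. The log2 fold change of Lce3b was -1.55 (SE 1.26, edgeR adjusted p = 0.981) and -0.10 without vehicle mouse 2.

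The small proline-rich proteins, cross-bridges between the other envelope proteins, spanned the widest range of levels. Sprr1a had 1699, 1435, 1669, 1094 and 1257 TPM in MMP9 mice and 1091, 1953, 1655, 1354 and 2028 TPM in vehicle mice. Its values overlapped from end to end, and the log2 fold change was -0.12 (SE 0.17, edgeR adjusted p = 0.981). Sprr4 was similar across mice, at 334, 356, 331, 424 and 377 TPM in MMP9 mice and 365, 372, 278, 294 and 426 TPM in vehicle mice, with a log2 fold change of 0.19 that was -0.06 without MMP9 mouse 4. Sprr1b, induced in stressed keratinocytes, varied far more, at 93.5, 39.3, 8.84, 46.7 and 2.45 TPM in MMP9 mice, against 7.41, 285, 42.6, 7.99 and 196 TPM in vehicle mice. Its highest values were those of vehicle mice 2 and 5 and MMP9 mouse 1, while MMP9 mouse 5 was the lowest of all, and the log2 fold change was -1.38 (SE 1.07, edgeR adjusted p = 0.981). It was -0.61 without vehicle mouse 2.

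Of the 10 Sprr2 genes, 6 were tested. All 6 had negative log2 fold changes, with a median of -0.52 and a range from -1.71 to -0.05. Without vehicle mouse 2, 5 of the 6 were positive, and with limma-voom 4 were. Their summed TPM was 705, 81.5, 108, 63.8 and 27.6 in MMP9 mice and 22.8, 1035, 80.3, 16.4 and 168 in vehicle mice. A single mouse of each group, MMP9 mouse 1 and vehicle mouse 2, thus lay far above the others. Sprr2h had 21.6, 10.4, 4.85, 7 and 2.04 TPM in MMP9 mice and 4.72, 49.4, 10.7, 6.35 and 26.0 TPM in vehicle mice, a log2 fold change of -1.03 (SE 0.69, edgeR adjusted p = 0.981) that was -0.33 without vehicle mouse 2. Sprr2d had 10.5, 8.29, 0.44, 3.54 and 0.75 TPM in MMP9 mice and 0.51, 62.3, 0.32, 0.48 and 16.03 TPM in vehicle mice. Only vehicle mice 2 and 5 exceeded all MMP9 mice. The log2 fold change of Sprr2d was -1.71 (SE 1.29, edgeR adjusted p = 0.981), turning to 0.18 without vehicle mouse 2.

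Short reads could separate the Sprr2a copies only in part, and Sprr2a1 and Sprr2a2 least of all. Of the 50-base windows of their transcripts, 96.3% in Sprr2a1, 96.5% in Sprr2a2 and 61.1% in Sprr2a3 also occurred in another gene. The Sprr2a3 transcript searched had 2880 bases, against an implied length of 803 in the deposited values. The deposited TPM of Sprr2a1 and Sprr2a2 was the same in 6 of 10 libraries. Sprr2a1 was listed at 147, 6.06, 4.16, 4.07 and 2.03 TPM in MMP9 mice and at 1.84, 163, 0, 0.67 and 10.04 TPM in vehicle mice. Summed over the 3 copies, the TPM was 667, 56.6, 96.6, 39.0 and 22.3 in MMP9 mice and 16.6, 885, 65.0, 6.92 and 92.3 in vehicle mice. The sum had a log2 fold change of -0.31 (SE 1.23, edgeR adjusted p = 0.990), with the same 2 mice far above the rest. The other Sprr2 genes shared at most 13.7% of their windows, and the Lce genes up to 49.3%. Their split between copies is therefore less certain than that of the 23 members that shared none in the transcript searched. Flg is among the 23, but its transcript searched had 1488 bases against an implied length of 13633, so most of it was not searched.

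The 6 members left out of the test had few counts over all 10 libraries: 193 for Sprr2e, 186 for Lce3f, 143 for Sprr2f, 52 for Sprr2b, 37 for Lce3a and 8 for Sprr2k. All but Sprr2f and Sprr2k were highest in vehicle mouse 2, and those were highest in vehicle mouse 5. Sprr2b, for example, had 1.14, 0.20, 0, 0 and 0.16 TPM in MMP9 mice and 0.20, 5.5, 0.19, 0.18 and 0 TPM in vehicle mice.

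**Figure D2:**
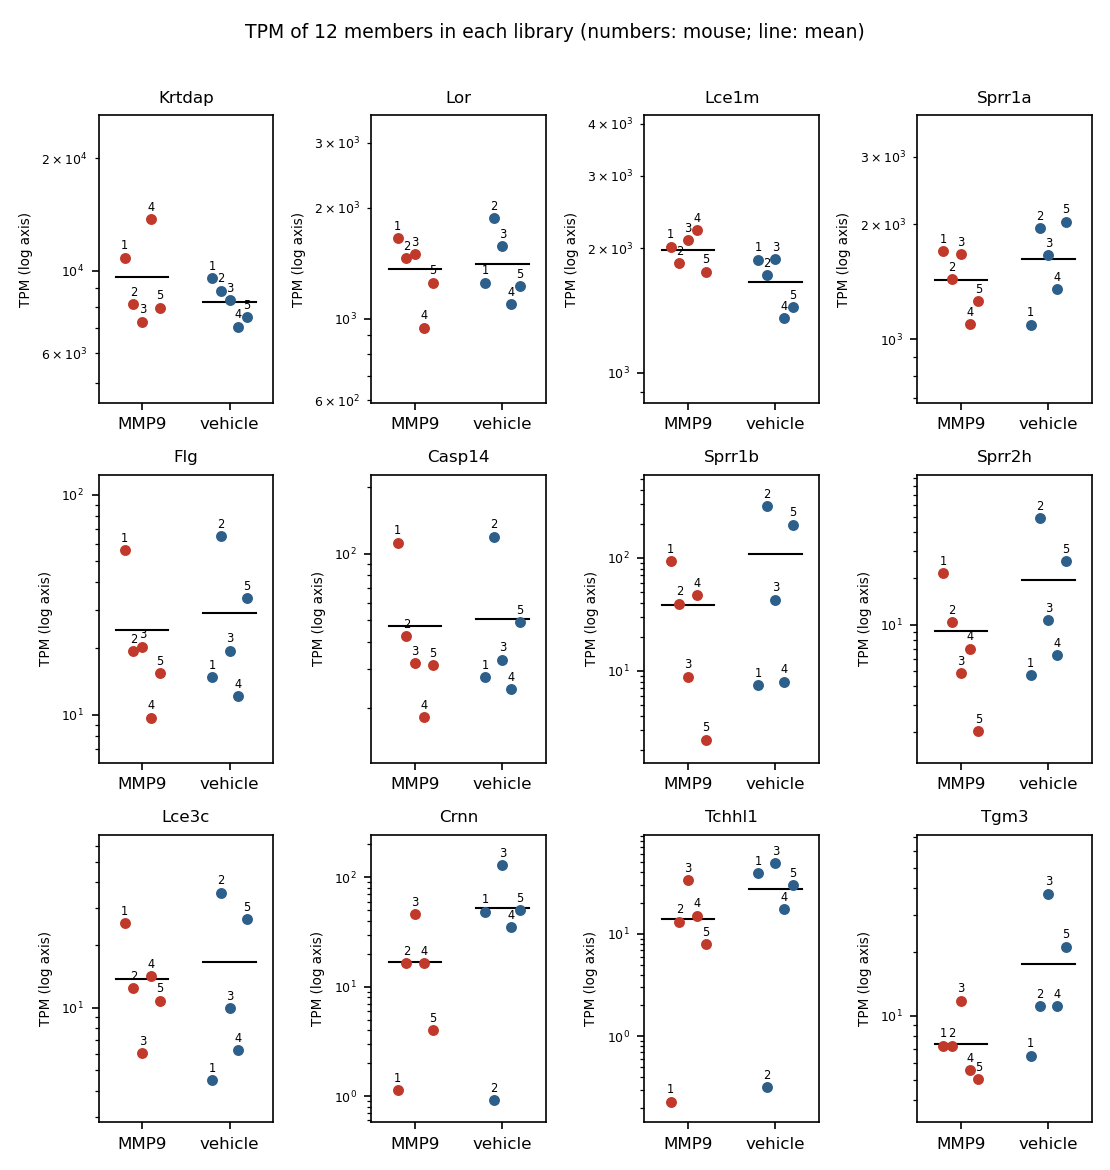
TPM (y axis, logarithmic) of 12 members in each mouse, MMP9 on the left and vehicle on the right of each panel, with the mouse number over each point and the group mean as a line. Krtdap, Lor, Lce1m and Sprr1a vary little, Sprr1b, Sprr2h and Lce3c are highest in vehicle mouse 2, and Crnn and Tchhl1 are lowest in vehicle mouse 2 and MMP9 mouse 1.

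The fused S100 proteins, large filaggrin relatives that carry calcium-binding domains, split by the mice in which they were high. Flg2 had 209, 159, 150, 86.5 and 133 TPM in MMP9 mice and 162, 134, 155, 127 and 131 TPM in vehicle mice. Its highest and lowest TPM were both in the MMP9 group, and its log2 fold change was 0.08. By CPM Flg2 was lowest in vehicle mouse 5 at 590, against 602 in MMP9 mouse 4. Flg, the filaggrin precursor, had 56.2, 19.4, 20.4, 9.67 and 15.4 TPM in MMP9 mice and 14.8, 64.9, 19.5, 12.2 and 33.8 TPM in vehicle mice. For Flg the log2 fold change was -0.27 (SE 0.49, edgeR adjusted p = 0.981), and it was -0.77 without MMP9 mouse 1 and 0.26 without vehicle mouse 2. Rptn and Hrnr, which encode the envelope proteins repetin and hornerin, were also highest in vehicle mouse 2 and had log2 fold changes of -0.28 and -0.13.

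Crnn and Tchhl1 ran the other way. Crnn, which encodes cornulin, had 1.13, 16.5, 45.9, 16.4 and 4.01 TPM in MMP9 mice, against 48.6, 0.92, 129, 35.2 and 49.9 TPM in vehicle mice. Tchhl1, a relative of the hair follicle protein trichohyalin, had 0.23, 13.1, 33.7, 15.1 and 7.92 TPM in MMP9 mice, against 39.3, 0.32, 49.0, 17.5 and 29.9 TPM in vehicle mice. Both were lowest in MMP9 mouse 1 and vehicle mouse 2, where inner root sheath and hair shaft transcripts were almost absent. Both were highest in vehicle mouse 3, where these transcripts were most abundant. The log2 fold change of Crnn was -1.58 (SE 1.00, edgeR adjusted p = 0.981) and that of Tchhl1 was -0.86 (SE 0.97, edgeR adjusted p = 0.981), and without vehicle mouse 3 they were -0.93 and -0.54.

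The enzymes that act on the envelope and on filaggrin did not pass either. Of the 3 transglutaminases, Tgm3, known from both epidermis and the inner root sheath of hair, had the smallest p of all members. Its TPM was 7.23, 7.22, 11.8, 5.55 and 5.02 in MMP9 mice, against 6.48, 11.1, 37.7, 11.1 and 21.2 in vehicle mice. By TPM vehicle mice 3 and 5 lay above all MMP9 mice, but vehicle mice 1, 2 and 4 lay within their range. By CPM vehicle mouse 4, at 18.6, also lay above all MMP9 mice, of which mouse 3 was highest at 17.9. For Tgm3 the log2 fold change was -1.19 (SE 0.42, 95% interval -2.10 to -0.28) with an edgeR unadjusted p of 0.0151 and an adjusted p of 0.981, was -0.70 without vehicle mouse 3, and was negative in all 22 alternatives. Vehicle mouse 3 was also the highest for the inner root sheath genes, whereas vehicle mouse 2, at 11.1 TPM of Tgm3, was the lowest for them. Their summed TPM was 12.6, 604, 1502, 488 and 129 in MMP9 mice and 759, 8.55, 3475, 1193 and 1443 in vehicle mice, and their defining keratins Krt71 and Krt25 were above 0 in every library, down to 1.07 and 0.11 TPM in vehicle mouse 2. All 8 tested had negative log2 fold changes with a median of -1.26, and by edgeR 0 of 8 passed or had an unadjusted p under 0.05. The part of inner root sheath content in the difference in Tgm3 was not tested. Without vehicle mouse 2 and MMP9 mouse 1, the libraries poor in hair transcripts, the log2 fold change of Tgm3 was -1.28. That setting was chosen after seeing the data. The mice it keeps still differed in inner root sheath TPM, at 129 to 1502 with MMP9 and 759 to 3475 with vehicle. The fit therefore cannot tell inner root sheath content from treatment.

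Tgm1, the membrane-bound enzyme whose loss in humans causes lamellar ichthyosis, had 31.5, 23.6, 33.1, 15.7 and 20.6 TPM in MMP9 mice and 28.2, 31.8, 38.8, 24.4 and 30.1 TPM in vehicle mice. Tgm5, which acts in the upper epidermis, had 48.7, 46.1, 37.2, 24.6 and 32.5 TPM in MMP9 mice and 44.3, 48.8, 53.0, 30.3 and 37.4 TPM in vehicle mice. By TPM both were lowest in MMP9 mouse 4 and highest in vehicle mouse 3. By CPM Tgm1 was lowest in MMP9 mouse 5 at 34.2 and Tgm5 in vehicle mouse 4 at 47.8. The log2 fold changes were -0.27 for Tgm1 (SE 0.14, edgeR unadjusted p = 0.0917, adjusted p = 0.981) and -0.14 for Tgm5 (SE 0.15, edgeR adjusted p = 0.981), negative in all 22 alternatives.

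Casp14 and Asprv1 encode proteases that process filaggrin. Casp14 had 112, 42.3, 32.1, 18.2 and 31.3 TPM in MMP9 mice and 27.7, 120, 33.3, 24.5 and 48.9 TPM in vehicle mice, a log2 fold change of -0.11 (SE 0.50, edgeR adjusted p = 0.990). Asprv1 had 1157, 1039, 1004, 982 and 782 TPM in MMP9 mice and 763, 1339, 1020, 794 and 1145 TPM in vehicle mice, a log2 fold change of 0.06. Casp14 was highest in the same libraries as Flg, vehicle mouse 2 and MMP9 mouse 1, and its log2 fold change was -0.65 without MMP9 mouse 1 and 0.48 without vehicle mouse 2.

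Differences between single mice recurred across most of the families. Vehicle mouse 2 held the highest TPM for 32 of the 48 tested members, 66.7%, against 14.01% of all tested genes. Vehicle mouse 1 held the lowest TPM for 17, 35.4% against 2.81%. MMP9 mouse 4, rich in short transcripts, held the lowest TPM for 18.8% of members and 65.7% of all tested genes. That skews the background shares for the lowest library. By CPM some of the 32 were highest in MMP9 mouse 4. Lce1a1 had 430 CPM there against 409 in vehicle mouse 2, and Asprv1 1332 against 1198. The 3 highest libraries were MMP9 mouse 1, vehicle mouse 2 and vehicle mouse 5 for 19 members, 39.6% against 2.09% of all tested genes. These 19 were Rptn, Hrnr, Flg, Sprr1a, Sprr1b, Sprr2a1, Sprr2h, Sprr2d, Lce1d, Lce1e, Lce1f, Lce1g, Lce1h, Lce3b, Lce3c, Lce3e, Asprv1, Casp14 and Calm4. The mice were singled out after their values were seen, and the counts are a description of these libraries.

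Of 6 markers of activated keratinocytes, Krt16 and Krt6b were high in the same mice and the others had a different order. Krt16, a keratin of wounded and fast-growing epidermis, had 247, 48.3, 95.6, 186 and 68.8 TPM in MMP9 mice and 70.4, 519, 204, 30.7 and 256 TPM in vehicle mice. Krt6b had 114, 17.4, 24.2, 63.2 and 0.96 TPM in MMP9 mice and 23.0, 350, 62.9, 6.48 and 129 TPM in vehicle mice. S100a8, a calgranulin gene of the same chromosome region, had 84.2, 18.98, 40.0, 49.4 and 38.5 TPM in MMP9 mice and 29.0, 339, 35.3, 16.4 and 127 TPM in vehicle mice. For each of the 3 genes vehicle mouse 2 was highest, followed by vehicle mouse 5 and MMP9 mouse 1. Krt6a had 289, 172, 236, 248 and 142 TPM in MMP9 mice and 376, 535, 444, 229 and 347 TPM in vehicle mice, so that vehicle mice 3 and 1 followed vehicle mouse 2, and Krt17, the most abundant marker, was highest in vehicle mouse 3 at 1927 TPM. The summed TPM of the 6 markers ran from 1220 to 2280 in MMP9 mice and from 1410 to 3016 in vehicle mice, and 0 of 6 passed by edgeR, while Il20 and Krt6a had an unadjusted p under 0.05. Their part in the spread of Sprr2, Sprr1b and Lce3 was not tested.

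**Figure D3:**
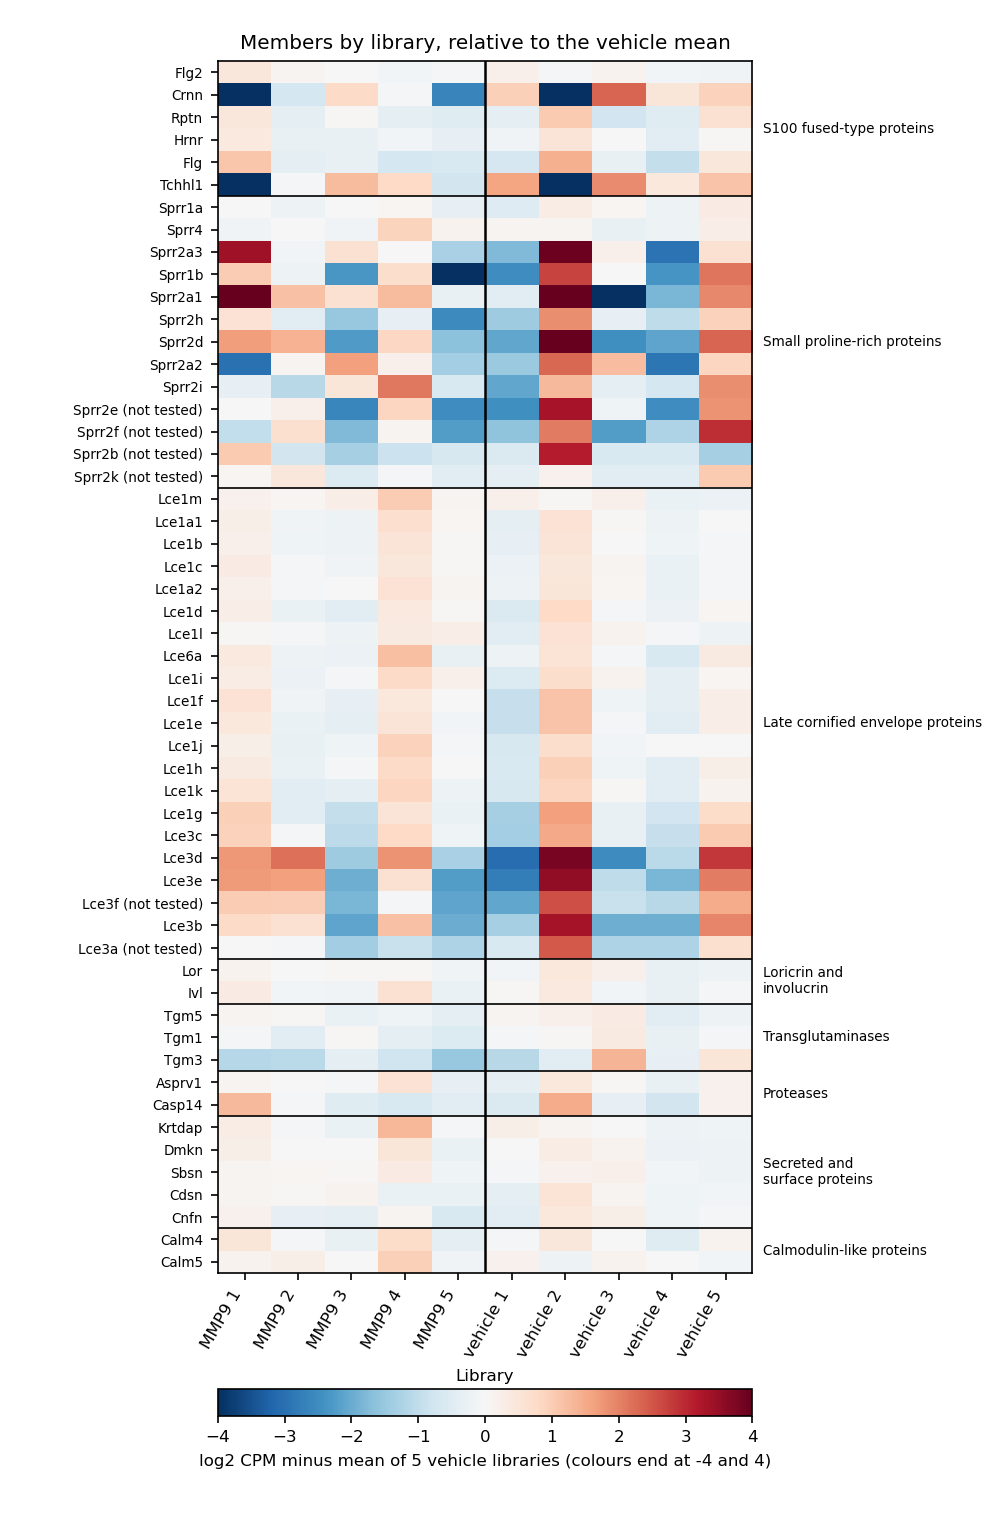
Log2 CPM of the 54 members (rows, by family) in each library (columns, 5 MMP9 left of 5 vehicle) minus the mean of the vehicle libraries, red above and blue below that mean. Vehicle mouse 2 and MMP9 mouse 1 are red for most Sprr2 genes, Lce3, Flg and Casp14 and blue for Crnn and Tchhl1, while most abundant members are pale in all mice.

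**Figure D4:**
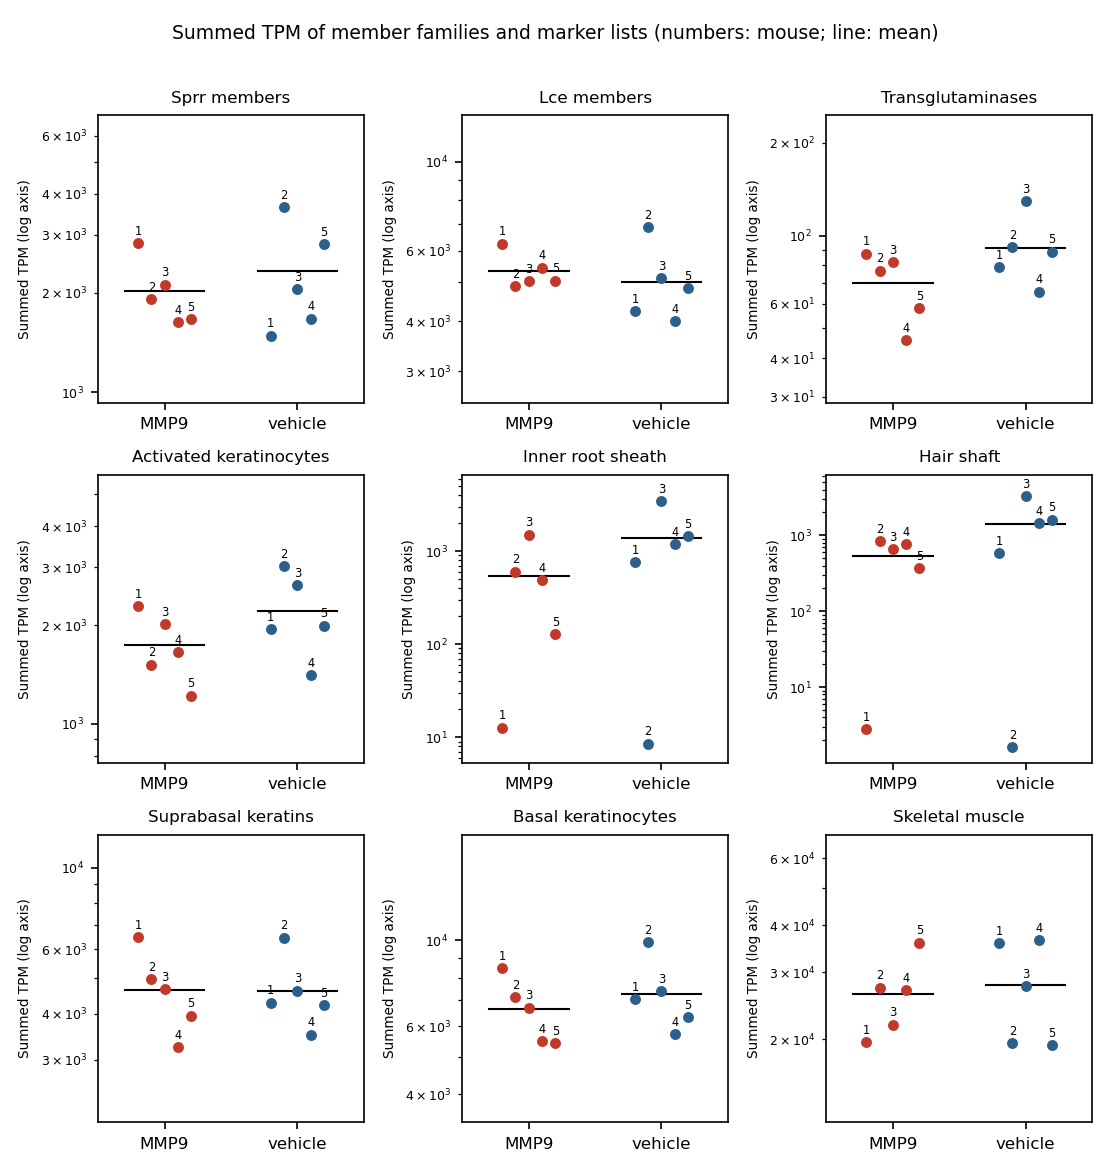
Summed TPM (y axis, logarithmic) of 3 member families and 6 marker lists in each mouse, MMP9 on the left and vehicle on the right, with the mouse number over each point and the group mean as a line. Inner root sheath and hair shaft sums are near the bottom in MMP9 mouse 1 and vehicle mouse 2 (12.6 and 8.55 TPM for the inner root sheath), the mice in which the Sprr and Lce sums are highest.

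By position, 42 of the members lie on chromosome 3, in the epidermal differentiation complex, 4 on chromosome 7, 2 each on chromosomes 2 and 13, and 1 each on chromosomes 6, 10, 14 and 17. Spread between libraries differed along the cluster on chromosome 3, between blocks of genes and within some of them. Lor, at the near end, differed 1.98-fold between its highest and lowest library. In the adjoining Sprr2 block the ratio was 24.2 to 195 for the 5 genes with no library at 0. It was 1.68 to 8.21 in the block of Lce6a and the other Lce1 genes, 7.92 to 56.8 for the 2 Lce3 genes with no library at 0, and 1.63 for Lce1m beside them. Within 2 stretches neighbours differed widely: from Sprr1b to Ivl it ran from 1.53 for Sprr4 to 116 for Sprr1b, with mean levels from 73.0 to 1523 TPM. Among the fused S100 genes at the far end it ran from 2.32 for Hrnr to 213 for Tchhl1.

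**Figure D5:**
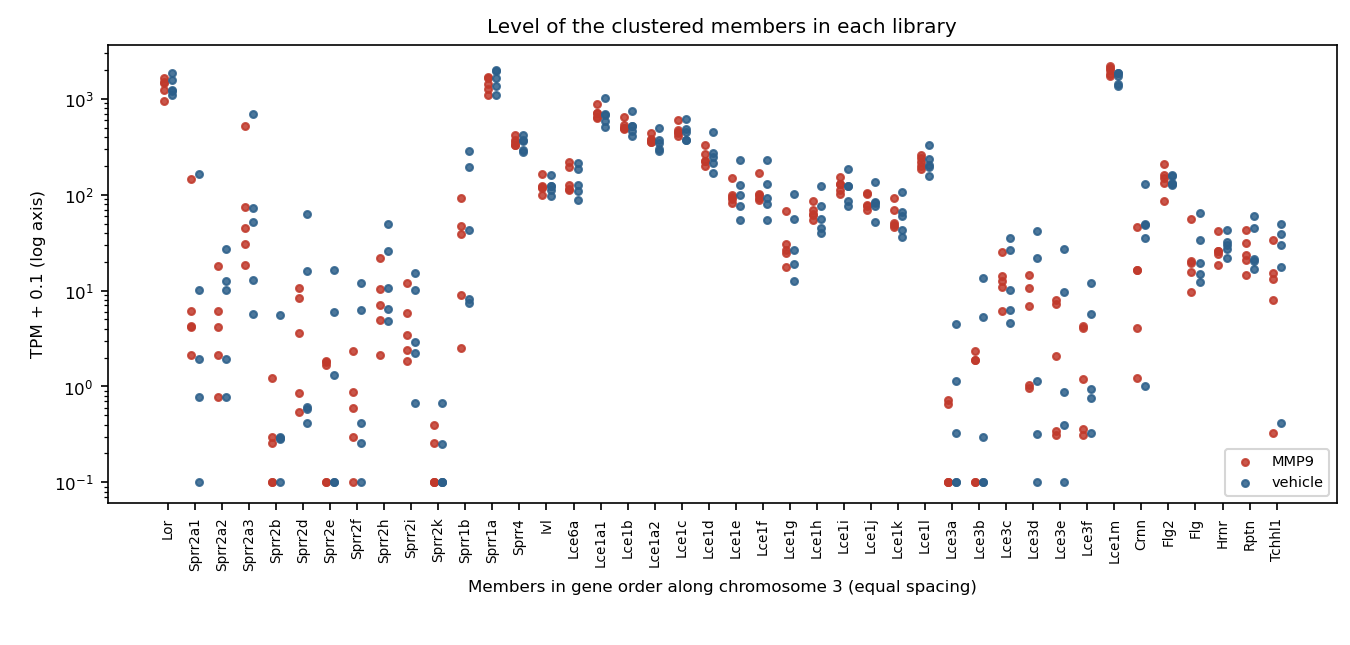
TPM plus 0.1 (y axis, logarithmic) of the 42 members on chromosome 3 in each library, MMP9 points left of vehicle points, with the genes at equal spacing in their order along the chromosome. The Sprr2 and Lce3 blocks are low and spread widely in both groups, and the Lce1 block, Lor and Lce1m are high and narrow.

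The upstream sequences of the members were searched for motifs of factors known to act on epidermal genes, as a description. A match is not evidence of binding, and a window without one says only that these letters do not occur in it. Both strands of the 250 bases before the start of 53 members and of 27025 genes in all were searched, in RefSeq sequences of build GRCm38.p6, an earlier build than the GRCm39 the authors used. The AP-1 letters TGANTCA occurred in 19 of 53 members, 35.8%, against 7.82% of all genes, and the TATA box letters TATAAA in 21 of 53, 39.6%, against 14.3%. The KLF letters GGGNGTGG occurred in 3 of 53, 5.66%, against 17.9% of all genes, and the grainyhead letters AACCGGTT in 0 of 53, against 0.137%. Near-copies share their upstream bases, so the members are not independent: Sprr2a1 and Sprr2a2 were the same at 250 of 250 positions and Sprr2d and Sprr2e at 220 of 250.

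The families differed in these letters. AP-1 letters occurred in 9 of 13 Sprr and 5 of 6 fused S100 genes and in 0 of 20 Lce genes, and TATAAA in 9 of 13, 4 of 6 and 4 of 20. The 200 bases before the start are shown for 8 members. Sprr2d, Sprr2e and Sprr1b were highest in vehicle mouse 2 and hold both motifs. Lce3d was highest in the same mouse and holds neither in the 250 bases searched. Lce3e was also highest there, with no AP-1 letters and with TATAAA only further upstream than the bases shown. Flg and Crnn hold both and were high in opposite mice. Lor holds both and was also highest in vehicle mouse 2, but differed only 1.98-fold between its highest and lowest library. Sequences run 5′ to 3′ on the gene's own strand, and capitals mark matches to TGANTCA and TATAAA. The positions in GRCm38.p6 are chr3:92338940-92339139 on the + strand for Sprr2d, chr3:92351943-92352142 on the + strand for Sprr2e, chr3:92438780-92438979 on the - strand for Sprr1b, chr3:92957190-92957389 on the + strand for Lce3d, chr3:92966861-92967060 on the + strand for Lce3e, chr3:93273346-93273545 on the + strand for Flg, chr3:93144589-93144788 on the + strand for Crnn and chr3:92083143-92083342 on the - strand for Lor.
Sprr2d: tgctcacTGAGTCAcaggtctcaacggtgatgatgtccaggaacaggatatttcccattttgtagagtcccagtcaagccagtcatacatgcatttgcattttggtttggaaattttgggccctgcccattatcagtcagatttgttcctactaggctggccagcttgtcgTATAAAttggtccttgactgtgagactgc
Sprr2e: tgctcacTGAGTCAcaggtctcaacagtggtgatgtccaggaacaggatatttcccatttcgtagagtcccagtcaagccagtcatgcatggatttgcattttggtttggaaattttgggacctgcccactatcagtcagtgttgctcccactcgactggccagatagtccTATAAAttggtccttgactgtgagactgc
Sprr1b: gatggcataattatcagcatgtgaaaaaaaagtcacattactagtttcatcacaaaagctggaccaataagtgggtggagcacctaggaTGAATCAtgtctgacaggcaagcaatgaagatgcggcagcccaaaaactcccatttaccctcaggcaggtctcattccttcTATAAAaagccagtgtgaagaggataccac
Lce3d: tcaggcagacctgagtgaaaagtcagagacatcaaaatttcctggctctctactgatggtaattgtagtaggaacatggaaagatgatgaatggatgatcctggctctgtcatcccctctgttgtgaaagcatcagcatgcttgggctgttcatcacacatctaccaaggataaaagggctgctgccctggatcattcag
Lce3e: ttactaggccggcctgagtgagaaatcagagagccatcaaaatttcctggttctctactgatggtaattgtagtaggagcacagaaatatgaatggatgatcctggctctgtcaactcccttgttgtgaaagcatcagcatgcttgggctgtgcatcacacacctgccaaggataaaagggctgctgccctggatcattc
Flg: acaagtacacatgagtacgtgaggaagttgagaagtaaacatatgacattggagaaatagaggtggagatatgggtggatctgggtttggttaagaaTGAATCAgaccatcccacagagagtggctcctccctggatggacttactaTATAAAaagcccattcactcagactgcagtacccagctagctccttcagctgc
Crnn: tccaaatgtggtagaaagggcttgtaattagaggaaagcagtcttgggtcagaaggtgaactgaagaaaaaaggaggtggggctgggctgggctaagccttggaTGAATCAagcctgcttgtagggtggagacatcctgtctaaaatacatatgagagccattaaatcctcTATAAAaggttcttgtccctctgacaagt
Lor: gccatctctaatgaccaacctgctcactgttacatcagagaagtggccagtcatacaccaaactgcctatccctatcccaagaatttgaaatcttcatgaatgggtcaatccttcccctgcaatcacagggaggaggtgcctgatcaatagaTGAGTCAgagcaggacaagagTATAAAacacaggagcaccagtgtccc
Among the members shown, these letters stood upstream of Crnn, lowest in vehicle mouse 2, and of others highest there. Lce3d, also highest in that mouse, held neither.

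The wider pathway gave no call. Of 22 regulators of terminal differentiation 4 had positive and 18 negative log2 fold changes, with a median of -0.13, and 0 passed. The 3 with the smallest p were the ETS factor Ehf at -0.40, the lipid-sensing receptor Ppard at -0.22 and Trp63, the master factor of stratified epithelia, at -0.18. Of 6 suprabasal keratins 4 were positive and 2 negative (median 0.11), led by Krt2, Krt78 and Krt77 at 0.44, 0.12 and 0.13. Of 15 other envelope and desmosome substrates 6 were positive and 9 negative (median -0.05), led by the protease inhibitor Cst6 at 0.26, plakoglobin Jup at -0.23 and desmoglein Dsg1a at 0.12. No gene of these 3 lists passed by edgeR or reached an unadjusted p under 0.05.

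Among 20 genes of proteolytic processing and its inhibitors 8 were positive and 12 negative (median -0.05). The 3 with the smallest p all encode peptidylarginine deiminases, which convert arginine residues of proteins: Padi4 at -0.48, Padi1 at -1.35 and Padi3 at -1.97. Padi3 had 0.18, 6.33, 20.1, 4.82 and 0.54 TPM in MMP9 mice and 9.96, 0.06, 71.0, 23.9 and 24.2 TPM in vehicle mice, lowest in the mice poor in hair transcripts and highest in vehicle mouse 3, as for Crnn and Tchhl1. Of 10 tested genes of the corneocyte lipid envelope 2 were positive and 8 negative (median -0.10), led by the fatty acid hydroxylase Cyp4f39 at -0.52, the elongase Elovl4 at -0.31 and Pnpla1 at -0.23, which acts in acylceramide synthesis. Of 15 tested genes among 18 others of the epidermal differentiation complex 7 were positive and 8 negative (median -0.0041), led by S100a4 at 0.38, S100a8 at -1.14 and S100a7a at -0.77. Again 0 genes of these 3 lists passed by edgeR or had an unadjusted p under 0.05.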

How the data were processed

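Cheek skin mRNA of 10 mice was selected with oligo(dT) beads and read as single-end 50-base reads on a DNBSeq instrument, per the labels' protocols. For each gene and library the authors deposited an estimated count, not normalised and not always whole (60.8% were not), beside FPKM and TPM, per the file headers. HISAT and build GRCm39 are named in the submitters' processing notes, and the sources used here give no version, counting program, annotation or strand. The deposited FPKM values served only for the gene length they imply, and the deposited TPM values, scaled by length and library, give the levels. Group means deposited by the authors stayed unused.

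Rounded estimated counts went into edgeR 4.0.16 (R 4.3.3) with TMM factors, the filterByExpr filter (15250 of 18994 genes kept, with 99.9% of the counts), treatment as the only term, a quasi-likelihood F test and Benjamini-Hochberg adjustment at 0.05 over all tested genes. The fit was tested on simulated data. No 2 libraries were duplicates: the lowest chi-square per gene of a pair was 17.8. CPM values use the TMM factors, and log2 deviations a prior count of 2. Alternatives were RLE and upper-quartile factors, TMM factors without the members, no filter, a minimum mean of 1 CPM, limma-voom (limma 3.58.1), DESeq2 1.42.0, limma on log2(TPM + 1) and log2(TPM + 0.1), the mouse number as a block and leaving out each mouse.

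Members, families and lists were chosen with earlier results of these data known. Values in every library are given for the 2 members of each family with the highest mean TPM, the 2 with the smallest p, and members with an outlying library by Dixon's test on log2 CPM; the 3 genes of each pathway list with the smallest p are named. Sprr1b, the other genes with values for single mice and the printed promoters were chosen after their values were seen. Promoters are RefSeq sequences of GRCm38.p6, matched by symbol or gene ID for 53 of 54 members. Shared 50-base windows were counted in reference transcripts of an earlier annotation, and chromosomes and gene order come from a RefSeq gene table. Counting intervals and limits cover counting error only.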

Additional observations from a re-analysis of the deposited data

Results flagged for a closer look

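Of 108 groups of 5 mice, 54 members in each of 2 treatments, 8 (7.41%) held 1 mouse far from the others by Dixon's test on log2 CPM, where chance alone gives about 1 in 20. On CPM without the log, a scale tried after seeing the data, 18 did, 6 of them among the 8. Levels are given in CPM. In the MMP9 group mouse 1 was far the highest for Flg at 429 CPM, Casp14 at 143 CPM and Sprr2a1 at 288 CPM. In the same group mouse 4, the library rich in short transcripts, was far the highest for Lce1m at 1666 CPM and Sprr4 at 70.4 CPM. In the vehicle group mouse 2 was far the lowest for Crnn at 1.04 CPM and Tchhl1 at 0.382 CPM, and far the highest for Sprr2b at 2.13 CPM. By TPM, which is scaled by transcript length, Lce1m in MMP9 mouse 4 stood at 2212 against 2094 in the next mouse, and Sprr4 at 424 against 377.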

How the results depend on the processing

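In all 22 alternatives 0 of the members in the fit passed, with a lowest adjusted p of 0.887, and the count of genes passing was 0 except with DESeq2, which called 1 gene, not a member. The number of members with a positive log2 fold change, 20 of 48, was 31 with limma-voom and ranged from 8 to 38 when each mouse was left out in turn, lowest without MMP9 mouse 4 and highest without vehicle mouse 2. It was 30 of 44 without vehicle mouse 2 and MMP9 mouse 1, and 16 of 44 also without MMP9 mouse 4, settings chosen after seeing the data. The sign held in every alternative that fitted the gene for 14 members, 10 negative and 4 positive, and turned in at least 1 for the other 34. Among the 10, Lce3b was fitted in only 19 of the 22, and in none that left out vehicle mouse 2 together with MMP9 mouse 1. The family median turned sign in 3 of 22 alternatives for Sprr and for Lce, in 1 for the fused S100 genes and in none for the transglutaminases, where it ran from -0.36 to -0.17. The labels do not state that mice with the same number belong together. Such mice correlated at -0.24, -0.05, 0.46, 0.14 and 0.20 in their deviations, with only MMP9 mouse 3 correlating best with its own number, so the numbers were not taken as pairs. With the number as a replicate block, 0 genes passed, 554 had an unadjusted p under 0.05 against 487 without it, 2 members against 1 had one, and 29 of 48 members were positive. The causes of these shifts were not tested. The filter, which asks for a minimum count in enough libraries, left out 6 members with 8 to 193 counts in all, while Lce3b was kept with 143.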
